A study of Mus musculus with 6 samples.

Results

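The Zfp genes are the mouse genes whose symbol is Zfp followed by a number, most of them encoding proteins with C2H2 zinc fingers, small loops held by a zinc ion that contact DNA or RNA. The genes described here were chosen by name and by level. Each has a row of the array whose annotation gives that symbol alone, and a mean over all 6 arrays of 7 or more on the log2 scale. When a gene had several rows, the row with the highest mean stood for it. Of 340 Zfp genes with such a row, 198 reached the mean of 7 and are called members below, out of 19938 genes measured in all. Zfp36 and the Zfp36l genes, which encode RNA-binding proteins of another zinc finger class, are not among them. A further 26 Zfp genes appear only in rows that carry several symbols and are not analysed here.

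RNA came from CD11b+Gr-1+ cells sorted from liver, which the labels name myeloid-derived suppressor cells (MDSC), immature myeloid cells that restrain T cells. All mice were C57BL/6 and all carried tumours of EL4, a transplanted mouse lymphoma line. The PBS group (n = 3 arrays) received saline, and its samples are titled untreated. The Con A group (n = 3 arrays) received type IV concanavalin A, a lectin from jack bean used to set off T cell-driven liver injury. Both groups were taken 3 hours after injection. Sources disagree on the dose, which the series design puts at 12.5 mg/kg and the sample treatment entries at 12.5 ug/kg. Age and sex are not in the labels used here. The labels speak of 3 mice per group but do not tie each array to 1 mouse. The p-values therefore reflect only how far these arrays spread, which may be technical.

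Many C2H2 proteins carry a KRAB box, which recruits the scaffold protein TRIM28 and through it the histone methyltransferase SETDB1 and heterochromatin proteins, and so silences the DNA that the fingers bind. Endogenous retroviruses and imprinted genes are the best known targets of this kind of silencing. Other Zfp proteins have no KRAB box and act as activators, RNA-binding proteins or ubiquitin ligases. KRAB-type genes lie in tandem clusters of recent copies, and near-identical copies can share array probes.

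After Con A, more members fell than rose. Of 198 members, 42 were lower (21.2%) and 10 higher (5.05%) by limma after Benjamini-Hochberg adjustment over all genes. Among the 10786 other genes of mean 7 or more, 12.1% were lower and 7.37% higher. Over all genes measured, whatever their level, the shares were 7.22% and 4.59%. Most of the changes were modest. On the log2 scale, Con A minus PBS, the 42 falls ranged from -1.21 to -0.33 with a median of -0.54, and the 10 rises ranged from 0.35 to 1.40 with a median of 0.55. Only 3 falling and 2 rising members passed 2-fold. In all 52 of these genes the 3 Con A arrays lay wholly on 1 side of the 3 PBS arrays. The test on these same arrays picked the genes, so this separation is no further evidence.

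The number of calls changed with the array left out. Without PBS replicate 3 the test called 43 members lower and without Con A replicate 1 it called 31. Without PBS replicate 1 it called 22 and without Con A replicate 2 it called 24. Without PBS replicate 2 it called 25 and without Con A replicate 3 it called 27. The other genes lost calls in the same fits, so that without PBS replicate 1 the shares lower were 11.1% of members and 5.78% of other genes, and without Con A replicate 2 they were 12.1% and 5.97%. The rising members numbered 6 without any 1 of PBS replicate 1, PBS replicate 2, Con A replicate 1 or Con A replicate 3. That was 3.03% of members each time, against 3.84%, 6.65%, 5.49% and 4.66% of other genes in the same order. Of the 42 falling members, 21 kept their call in each of the 6 fits with 1 array left out, and of the 10 rising members 5 did. The same count was not made for the other genes. Each of these fits also has fewer arrays, and the part of that in the lost calls was not tested.

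Over all members, those that passed the test included, the difference was below 0 in 136 of 198 members (68.7%), against 53.6% of the other genes of mean 7 or more. The median difference was -0.127 in members and -0.022 in the other genes. The middle range of members, from the first to the third quartile, ran from -0.358 to 0.046, and that of the other genes from -0.225 to 0.135. Among the 146 members that did not pass, 86, 98 and 90 lay below their PBS mean in Con A replicates 1, 2 and 3, with median shifts of -0.034, -0.105 and -0.06. Differences beyond 1.5 were found in 133 other genes (1.23%) and in 0 members, and falls over 2-fold in 163 of 10786 other genes and 3 of 198 members. Counting arrays alone, 83 members (41.9%) had all Con A values below all PBS values, against 24.4% of the other genes, and 27 members (13.6%) had all Con A values above, against 16.3%. These shares describe the genes chosen and were not tested as a set.

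**Figure D1:**
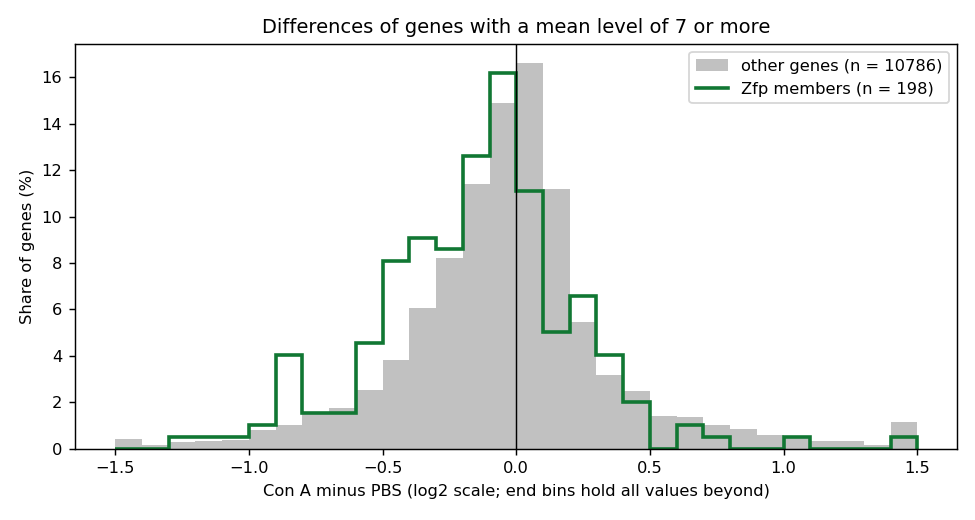
Share of genes (%) in bins of the difference between Con A and PBS (log2 scale), for the 198 members (green line) and the 10786 other genes of mean 7 or more (grey). The members sit to the left of the other genes, with medians of -0.127 and -0.022, and the outermost bins also hold all values beyond them.

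Members had a lower median level than the other genes, 8.25 against 8.91, so the 2 sets were also put side by side within bands of mean level. In the band from 7 to 8, which holds 85 members, 12.9% of members were lower against 6.81% of other genes. From 8 to 9 (68 members) the shares were 25% and 14.4%, and from 9 to 10 (29 members) 31% and 15.9%. At 10 or more, with only 16 members, 31.2% were lower and 18.8% higher, against 13.5% and 11.6%. In each of the 4 bands the share of members lower was the larger one. The shares higher in the 3 bands below 10 rested on 2, 4 and 1 members and were 2.35% against 3.44%, 5.88% against 6.26% and 3.45% against 8.52%. Whether the shares of members and other genes differ was not tested in any band.

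**Figure D2:**
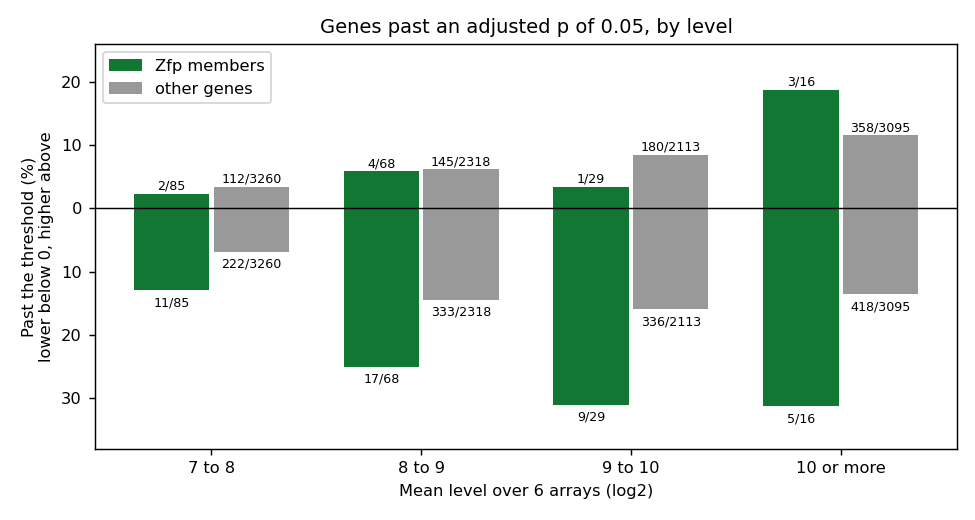
Share of genes past the threshold (%) that were lower (bars below 0) or higher (bars above 0) after Con A, by band of mean level over 6 arrays (log2), for members (green) and other genes (grey), with counts at the bars. In every band the green bar below 0 is longer than the grey one, from 12.9% against 6.81% at 7 to 8 up to 31.2% against 13.5% at 10 or more.

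The cut at 7 passes through genes of much the same kind. Just above it stood Zfp839, Zfp90 and Zfp930, with means of 7.01, 7.02 and 7.03 and differences of -0.02, -0.16 and -0.34. Just below it stood Zfp637, Zfp606 and Zfp874b, each at a mean of 6.95 or 6.96, with differences of -0.45, -0.14 and -0.76. Zfp637 and Zfp874b passed the test (limma adjusted p = 0.00795 and 0.0154), and the others named here did not. Of all 142 Zfp genes under the cut, 16 were lower (11.3%) and 1 higher (0.704%), against 0.828% and 1.24% of the 8812 other genes under it. No detection calls were used at any level, and the array medians lay between 7.05 and 7.08. The expression of the genes under the cut is not established, and that of members near it is uncertain too.

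The fall was shared by all Con A arrays. In the plot of shifts per array, the median member lay 0.071 below its PBS mean in Con A replicate 1 (median shift -0.071), and the shifts were -0.159 in replicate 2 and -0.107 in replicate 3. In the PBS arrays the median member lay between -0.015 and 0.015. These 3 arrays make up the PBS mean, which by itself holds them near 0, so they are no independent measure of spread. For the other genes of mean 7 or more the Con A arrays stood at -0.012, -0.048 and -0.021. Con A replicate 2 was therefore the lowest array in both sets. This array also had the highest mean level of hepatocyte markers (7.61, against 6.64 to 6.75 in the other 5 arrays, 7 of 7 markers measured) and of Kupffer cell markers (9.13, against 7.09 to 7.81, 8 of 8 measured), although 0 genes of either list passed the limma test between the groups. The part of these cells in the members' values was not tested, and without this array the median difference of members was -0.094 and that of other genes -0.015.

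**Figure D3:**
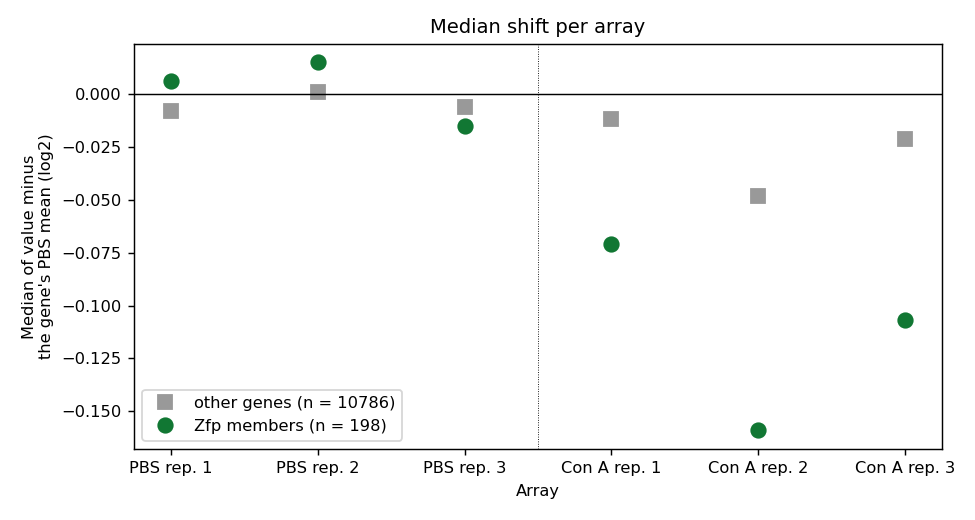
Median over genes of the array value minus the gene's mean over the 3 PBS arrays (log2), for each of the 6 arrays, in members (green circles) and other genes (grey squares). The 3 Con A arrays lie from -0.159 to -0.071 in members and from -0.048 to -0.012 in other genes.

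Zfp710 had the largest fall. Its values were 10.82, 10.60 and 10.73 after PBS and 9.64, 9.33 and 9.54 after Con A (probe set 10554370), so the groups lay almost a full log2 unit apart at their closest. That was a 2.32-fold decrease, with a difference of -1.21 (95% interval -1.46 to -0.97, limma adjusted p = 0.00099). Zfp983 stood at 8.16, 8.07 and 7.80 after PBS and at 6.87, 6.57 and 7.11 after Con A, 2.23-fold lower (adjusted p = 0.00387 by limma). It is also named in rows that carry several symbols, so its probes may report on close copies. Its Con A mean was 6.85, so it reached the level of 7 through its PBS values alone, as did 3 smaller falls, those of Zfp157, Zfp553 and Zfp54, with Con A means of 6.87, 6.93 and 6.83. Zfp652, a transcriptional repressor that partners the corepressor CBFA2T3, stood at 11.51, 11.43 and 10.93 after PBS and at 10.34, 10.08 and 10.17 after Con A. It was the brightest of the strongly falling members, 2.13-fold lower (difference -1.09, 95% interval -1.46 to -0.73). Its lowest PBS value, in replicate 3, was still above every Con A value.

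Zfp809, which binds the primer binding site of murine leukaemia viruses and recruits TRIM28 to silence them, had very even PBS values of 10.21, 10.20 and 10.16. After Con A it stood at 9.13, 9.37 and 9.47, a 1.82-fold fall (difference -0.87 ± 0.10 SE, limma adjusted p = 0.0022). Its highest Con A value was far below its lowest PBS value. Zfp831 went from 9.04, 8.69 and 8.47 to 7.83, 7.56 and 7.82, and Zfp141 from 8.81, 8.92 and 8.69 to 8.03, 7.59 and 7.82. Both were close to 2-fold lower, by differences of -0.997 and -0.996, and for Zfp141 a second row of the array gave -0.989. Second rows of other falling members were not always so close. That of Zfp664 gave -0.023 against -0.509, that of Zfp825 -0.38 against -0.652, and that of Zfp672, at a mean of 5.69, -0.132 against -0.353.

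The other 6 of the 12 largest falls were those of Zfp398, Zfp942, Zfp276, Zfp280c, Zfp740 and Zfp329. Their differences lay between -0.873 for Zfp398 and -0.828 for Zfp329, with adjusted p from 0.0136 for Zfp398 to 0.00176 for Zfp329 (limma). Zfp329 was the tightest after Con A, at 7.13, 7.07 and 7.07 against 7.85, 8.08 and 7.82 after PBS. Zfp398 was the loosest, at 7.37, 7.17 and 7.83 after Con A. Its call was lost without PBS replicate 1, at an adjusted p of 0.0537 by limma, while the other 11 of these genes kept theirs whichever array was left out. Zfp770, named after its values were seen, did not pass. It differed by -0.87 with groups that did not overlap, but its PBS arrays spread from 8.23 to 9.16 and its adjusted p was 0.0531.

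Rises were few and led by 3 genes. Zfp456, which RefSeq also lists as Rslcan-13, a candidate among the regulators of sex-limited liver genes, went from 8.05, 8.04 and 8.26 after PBS to 9.41, 9.55 and 9.60 after Con A (probe set 10410311). It was 2.65-fold higher (difference 1.40, 95% interval 1.18 to 1.62, limma adjusted p = 0.000561) and had the largest difference of any member in either direction. Zfp719 went from 8.63, 8.59 and 8.13 to 9.65, 9.42 and 9.33, a 2.02-fold rise (difference 1.02, adjusted p = 0.00606 by limma). PBS replicate 3 was its low array. Zfp131, whose product joins a BTB domain to its zinc fingers, went from 9.80, 9.87 and 9.90 to 10.53, 10.66 and 10.58, a rise of 0.73 ± 0.07 SE (limma adjusted p = 0.0015). Its arrays were the most even of these 3 genes within both groups.

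Smaller rises were those of Zfp819, Zfp599, Zfp935, Zfp523 and Zfp292, at 0.64, 0.62, 0.47, 0.40 and 0.40. Zfp819 stood at 6.88 ± 0.15 after PBS and 7.51 ± 0.13 after Con A (SD, n = 3), and Zfp599 at 6.73, 6.67 and 7.05 against 7.54, 7.40 and 7.38. Both had a PBS mean below 7, at 6.88 and 6.82, and reached the cut through their Con A values alone. Zfp935 (9.95 ± 0.06 against 10.42 ± 0.06, SD, n = 3) is also named in rows of several symbols. Zfp523, a close relative of the promoter-binding factor Zfp143, and Zfp292 passed the test with all arrays at adjusted p = 0.0456 and 0.0271. With 1 array left out, Zfp523 kept its call in 0 of 6 fits and Zfp292 in 1. Zfp523 also lost it after median centring (limma adjusted p = 0.0709) and in the trended robust fit (0.0564).

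**Figure D4:**
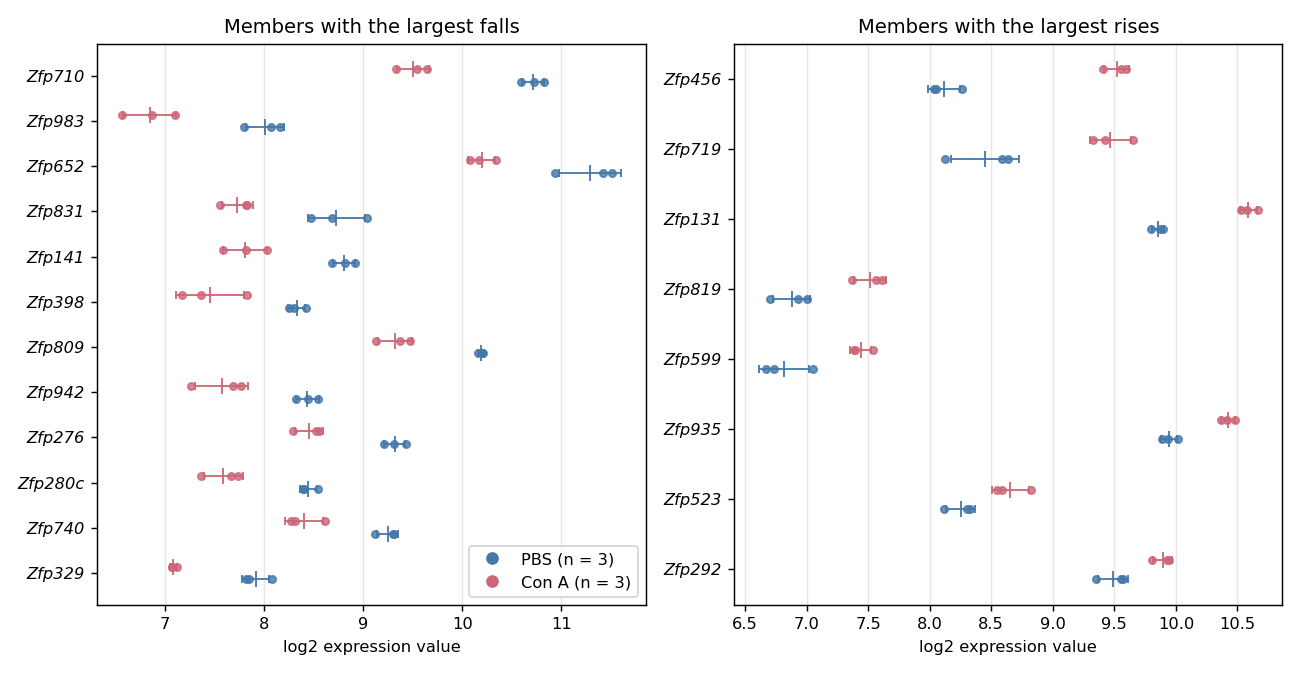
Log2 expression values of the 12 members with the largest falls (left) and the 8 with the largest rises (right), each point 1 array, with the mean (tick) and SD (bar) of 3 arrays per group, PBS in blue and Con A in red. In each of the 20 genes the 2 colours do not overlap, but the genes were picked by a test on these same arrays.

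Members that take part in silencing of retroviruses and imprinted genes passed the test in some cases and not in others. Zfp809 fell, as given above. Zfp445, which acts with Zfp57 to keep methylation marks on imprinted genes, went from 10.06, 10.20 and 9.78 to 9.68, 9.49 and 9.46 (difference -0.47, limma adjusted p = 0.0452), and lost its call in 5 of the 6 reduced fits, most of all without Con A replicate 2 (limma adjusted p = 0.151). It also lost it after median centring (limma adjusted p = 0.0511) and quantile normalization (0.0789). Zfp638, which brings the HUSH silencing complex to unintegrated retroviral DNA, fell by 0.35 (from 9.87 ± 0.14 to 9.52 ± 0.02, SD, n = 3, limma adjusted p = 0.0435), and its call likewise held in 1 of 6 such fits. With the replicate number as a block its limma adjusted p was 0.0594, after quantile normalization 0.0879 and in the trended robust fit 0.0532. Zfp57 itself differed by 0.09 (95% interval -0.17 to 0.36), and Zfp568, which represses a placental promoter of Igf2, by 0.05 (-0.17 to 0.27). Neither passed the test.

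Among members with roles in RNA, translation or cell division, Zfp207 and Zfp346 fell. Zfp207, whose product binds the spindle checkpoint protein BUB3, stood at 11.69, 11.70 and 11.52 after PBS and 11.26, 11.29 and 11.26 after Con A (limma adjusted p = 0.0242). Its Con A arrays were close to each other, and the call held in 1 of 6 fits with 1 array left out. Zfp346, which binds double-stranded RNA, fell by 0.47 from 8.56 ± 0.07 to 8.09 ± 0.20 (SD, n = 3), and its call also held in 1 of 6. Zfp598, the ubiquitin ligase that marks collided ribosomes, differed by -0.15 (95% interval -0.34 to 0.04), Zfp622, which acts in maturation of the large ribosomal subunit, by -0.02 (-0.24 to 0.19), and the RNA-binding Zfp106 by 0.18 (-0.01 to 0.38).

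Of the members known as general transcription regulators, Zfp217, found in corepressor complexes with histone deacetylases, was the firmest change. Its values were 10.84, 10.73 and 10.74 after PBS and 10.36, 10.31 and 10.29 after Con A, a fall of 0.45 ± 0.07 SE (limma adjusted p = 0.00722) that kept its call in all 6 fits with 1 array left out. Zfp148 differed by -0.37 and missed the threshold (adjusted p = 0.0522 by limma), although its groups did not overlap, with PBS values from 10.40 to 10.67 and Con A values from 10.14 to 10.31. Without PBS replicate 3 it passed, at adjusted p = 0.0175. Zfp746 differed by -0.31 (adjusted p = 0.0547 by limma), Zfp592 by -0.26, Zfp281 by 0.20, Zfp384 by 0.09 and Zfp687 by -0.02, and none of these passed. The p75 neurotrophin receptor interactors Zfp369 and Zfp110 differed by -0.26 (95% interval -0.57 to 0.05) and -0.01 (-0.20 to 0.18).

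Zfp335, needed for T cell development, differed by -0.18 (95% interval -0.38 to 0.02) and did not pass the test. Zfp366, a nuclear protein of dendritic cells, stood at 7.85, 7.79 and 8.86 after PBS and 7.74, 7.96 and 8.51 after Con A. Replicate 3 was the high array in both groups and the interval of the difference ran from -0.83 to 0.63. Zfp703 differed by 0.02 (-0.19 to 0.24). Of other Zfp genes with well-known roles, Zfp326, Zfp318, Zfp532, Zfp521 and Zfp423 lay below the mean of 7.

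The 5 brightest members showed both directions. Zfp706 had the highest mean, 11.69, and fell by 0.53, from 11.94, 11.82 and 12.09 to 11.43, 11.37 and 11.46 (limma adjusted p = 0.00912). A second row for this gene gave -0.576. Zfp207 followed at a mean of 11.45 and fell. Zfp281 and Zfp384, at 11.24 and 11.02, did not pass the test. Zfp991, at 10.94, rose by 0.35, from 10.75, 10.70 and 10.84 to 11.16, 11.10 and 11.08 (limma adjusted p = 0.0226). It is also named in rows of several symbols, and its call held in 1 of 6 fits with 1 array left out.

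Zfp genes often stand side by side as copies of each other. All 198 members were placed on the RefSeq gene order of assembly GRCm38.p6, and 55 of them fell into 12 runs of 3 or more members in which each step crossed at most 3 positions among protein-coding genes. In these runs 11 of 55 were lower (20%) and 2 higher, and outside them 31 of 143 (21.7%) and 8. The longest run, from Zfp759 to Zfp738, holds 13 members and the gene with the largest rise, Zfp456. Its neighbours in that run did not pass the test in either direction, with differences from -0.48 for Zfp738 to 0.23 for Zfp953. In the run of Zfp54, Zfp51, Zfp53, Zfp52, Zfp948 and Zfp983 all 6 differences were below 0, and Zfp54, Zfp53 and Zfp983 passed the test. In the run from Zfp398 to Zfp746, Zfp398 and Zfp282 fell and the other 3 members did not pass.

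Taken pair by pair, 59 pairs of members were neighbours by the same step. In 42 of these pairs both differences lay on the same side of 0. Since 68.7% of all members lay below 0 and 80.8% of members' calls were lower, many pairs share a direction wherever the genes stand. Whether neighbours did so more often was not tested. In 4 pairs both genes passed the test. In 3 of these 4 both moved the same way. Zfp942 and Zfp943 fell by 0.86 and 0.51, Zfp398 and Zfp282 fell by 0.87 and 0.42, and Zfp719 and Zfp819 rose by 1.02 and 0.64, with 0 protein-coding genes between them in each case. In the remaining pair, Zfp809 and Zfp599, also direct neighbours, the differences were -0.87 and 0.62. These pairs were singled out after their values were seen. Where neighbours are close copies, signals from shared probes and from separate transcripts cannot be told apart in these data. Of the members that passed the test, 2 of 42 falling and 2 of 10 rising ones also appear in rows of several symbols, as do 13 of all 198 members.

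**Figure D5:**
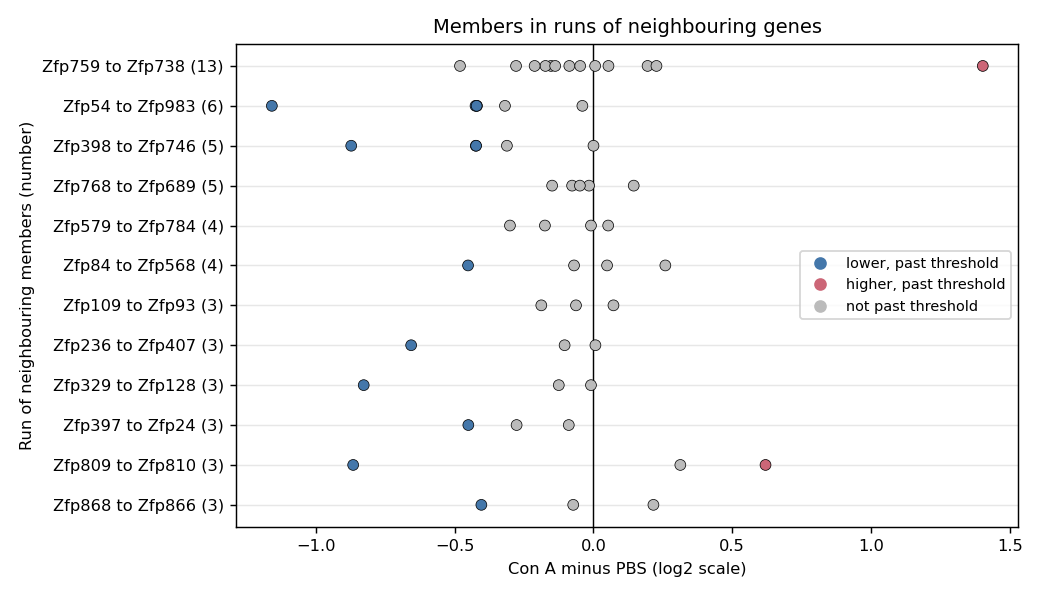
Difference between Con A and PBS (log2 scale) for the 55 members in 12 runs of neighbouring members, 1 row per run, named by its first and last gene with the number of members. Blue points were lower and red points higher past the threshold. Zfp456 stands alone at 1.40 in the run of 13 members, and all 6 points of the run from Zfp54 to Zfp983 lie below 0.

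RefSeq promoter windows, from 250 bases before a gene's start to just past it, were given for 160 of the 198 members. The part before the start is shown for Zfp710, the largest fall, and for Zfp456, Zfp719 and Zfp131, the 3 largest rises, all from GRCm38.p6 and written 5′ to 3′ along the gene's own strand. Capitals mark matches on either strand to the 10 short motifs named in the next paragraph.
Zfp710, chr7:80024564-80024813, plus strand: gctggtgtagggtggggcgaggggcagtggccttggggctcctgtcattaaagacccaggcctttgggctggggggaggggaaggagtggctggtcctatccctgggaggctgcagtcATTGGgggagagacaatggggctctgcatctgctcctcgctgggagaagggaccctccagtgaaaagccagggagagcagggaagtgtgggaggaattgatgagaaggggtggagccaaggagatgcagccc
Zfp456, chr13:67375764-67376013, minus strand: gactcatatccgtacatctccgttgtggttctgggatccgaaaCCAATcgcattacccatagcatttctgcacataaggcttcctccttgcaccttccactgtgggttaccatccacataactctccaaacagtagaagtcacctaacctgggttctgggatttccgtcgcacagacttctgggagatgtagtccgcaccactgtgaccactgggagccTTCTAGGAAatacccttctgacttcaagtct
Zfp719, chr7:43579336-43579585, plus strand: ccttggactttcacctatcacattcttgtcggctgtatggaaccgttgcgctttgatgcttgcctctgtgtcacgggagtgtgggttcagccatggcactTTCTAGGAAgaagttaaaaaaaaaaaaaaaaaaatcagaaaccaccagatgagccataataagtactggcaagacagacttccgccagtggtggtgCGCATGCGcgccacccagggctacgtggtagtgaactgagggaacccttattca
Zfp131, chr13:119790733-119790982, minus strand: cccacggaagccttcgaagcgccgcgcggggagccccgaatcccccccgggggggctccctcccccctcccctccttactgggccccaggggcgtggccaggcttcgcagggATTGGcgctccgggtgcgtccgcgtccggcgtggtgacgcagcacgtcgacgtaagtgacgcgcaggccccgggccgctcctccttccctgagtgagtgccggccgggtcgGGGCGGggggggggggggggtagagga

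The capitals in Zfp710 are a single CCAAT box read on the other strand, and its window has 2 CpG pairs in these 250 bases. Zfp131 has 29 CpG pairs there, a GC box and a CCAAT box. Zfp456 and Zfp719 both hold the letters TTCTAGGAA, a form of the gamma-activated site TTCNNNGAA that STAT factors bind. That exact form was taken from these 2 promoters and searched after they were seen. It was in the windows of 3 of 160 members (1.88%), namely Zfp456, Zfp719 and Zfp282, of which the first 2 rose and the last fell. It was in 0.277% of the other genes of mean 7 or more and in 0.411% of all 32851 windows. Because Zfp456 and Zfp719 set the form, their matches were fixed in advance. The share of members can therefore not be weighed against the other shares. A match is a description of letters and not a measure of binding.

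Over the whole windows, a match to TTCNNNGAA was found in 33 of 160 members (20.6%), in 7.86% of other genes of mean 7 or more and in 8.3% of all windows. Within the members it was in 6 of 36 falling genes (16.7%), 3 of 8 rising genes and 24 of 116 that did not pass (20.7%). Within the other genes of mean 7 or more it was in 7.16% of 1061 falling and 12.6% of 652 rising ones. The interferon response core GAAANNGAA was in 6.25% of members, 8.66% of other genes and 8.56% of all windows, and a kB site GGANTTTCC in 3.12%, 1.67% and 1.25%. The ETS site CCGGAAG was in 21.9%, 20.1% and 8.86%, the NRF1 core CGCATGCG in 6.25%, 4.3% and 1.87%, the CRE TGACGTCA in 5.62%, 3.48% and 1.79%, and the Staf and THAP11 core ACTACAA in 8.12%, 4.77% and 3.24%. The GC box GGGCGG was in 53.8%, 67.9% and 35.7%, the CCAAT box in 50.6%, 42.2% and 37.4%, and the TATA box TATAAA in 6.88%, 8.71% and 13.6%. Both strands were searched, and matches to different motifs may overlap. Here and for the exact form above, a gene counted when any of its windows matched. The shares of all windows count single windows, so they are not in the same unit. Taking for each gene its window with the most CpG pairs, members had a median of 17.5, other genes 22 and the falling members 16.

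Of the pathway that KRAB-type members act through, 22 of 25 listed genes were measured, and 3 fell (13.6%) and 0 rose, with a list median of 0.003. This list had no level filter, and Dnmt3b and Suv39h2 lay below 7, at means of 6.56 and 6.52. Beside its share lower stand 12.1% of other genes of mean 7 or more and 7.22% of all genes measured. Whether these shares differ was not tested. Setdb1, the histone methyltransferase of this pathway, went from 9.32 ± 0.04 to 8.63 ± 0.05 (SD, n = 3, difference -0.69, limma adjusted p = 0.0015). Dnmt3a, a DNA methyltransferase, fell by 0.51 and Ehmt1, also a histone methyltransferase gene, by 0.57 (limma adjusted p = 0.00705 and 0.0207). Trim28, the scaffold that KRAB boxes bind, stood at 9.56 after PBS and 9.25 after Con A and missed the threshold (adjusted p = 0.0846 by limma). The heterochromatin protein genes Cbx1, Cbx3 and Cbx5 differed by 0.06, 0.10 and 0.30 and did not pass.

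Other families of C2H2 genes were counted the same way at a mean of 7 or more. Of 37 Zbtb genes, which pair a BTB domain with zinc fingers, 6 fell (16.2%) and 1 rose (2.7%), against 12.1% and 7.37% of the other genes of mean 7 or more, with a median difference of -0.13. In these Zbtb genes 73% of differences lay below 0, and 40.5% had all Con A values below all PBS values. The same shares of members were 68.7% and 41.9%. Zbtb1, needed for lymphoid development, differed by -1.005 (limma adjusted p = 0.00141) and Zbtb38, which binds methylated DNA, by -0.94. Of 6 Zkscan genes 2 fell and 0 rose, and of 6 Zscan genes 1 fell and 0 rose, too few to read as shares. Whether these shares differ from those of the members was not tested.

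The sorted cells carried high levels of all 12 granulocytic markers listed, with a mean of 13.3 to 13.4 on each array, and 1 of them, Mmp9, fell by 0.58 (limma adjusted p = 0.00401) while the other 11 did not pass. Of 7 monocytic markers measured, 4 fell (F13a1, Ccr2, Cx3cr1 and Fn1) and 1 rose (Cd14), and their mean went from between 11.03 and 11.42 on the PBS arrays to between 9.92 and 10.41 on the Con A arrays. Markers of eosinophils, basophils and mast cells went from 8.08 to 8.72 up to 8.94 to 9.78, with 5 of 9 higher. In T cell and EL4 markers (10 of 12 measured, mean 6.72 to 6.78 after PBS and 6.74 to 6.90 after Con A) 0 passed, in B cell markers (7 of 8, 6.78 to 7.17 against 6.80 to 6.92) 1 fell, in NK markers (7 of 7, 7.92 to 8.18 against 7.47 to 8.61) 0 passed, and in dividing-cell markers (7 of 8, 9.97 to 10.79 against 10.63 to 11.20) 0 passed. In endothelial markers (6 of 6, 7.08 to 7.27 against 7.13 to 7.53) Pecam1 rose and Lyve1 fell. In bulk RNA, fewer cells of a type and less RNA per cell cannot be told apart, and the part of these shifts in the members' values was not tested.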

How the data were processed

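The authors deposited log2 expression values for 6 Affymetrix arrays in 1 table. The submitters' processing notes name RMA and Partek, without versions or settings. The table had 35556 rows, of which 21789 carried 1 gene symbol in the platform annotation. RMA compresses differences near the bottom of the scale. Array medians lay between 7.05 and 7.08, no detection calls were used, and precision is limited by having 3 arrays per group.

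Con A was compared with PBS across 19938 genes with limma 3.58.1 (lmFit and eBayes, two-sided, R 4.3.3), and p-values were adjusted by Benjamini-Hochberg across these genes (threshold 0.05). Intervals are 95% intervals. The fit was tested on simulated data. Plots used matplotlib 3.10.9 and sequence searches pandas 2.3.3, under Python 3.11.15. Sequences and gene order are from RefSeq, GRCm38.p6. No source used here gives the array's genome build. KRAB boxes and finger numbers of single members were not analysed here.

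The members and gene lists were chosen with earlier results of these data known. Named members were the 12 largest falls and 8 largest rises past the threshold, the 5 brightest, 3 on each side of the level of 7, and those with a known role. The motifs, neighbour pairs, Zfp770, Zfp157, Zfp553, Zfp664, Zfp672 and Zfp825 were added after values were seen, as were some members of the neighbour runs. Alternatives covered normalization, level filter, choice of row, fit settings, the replicate block and leaving out each array.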

Additional observations from a re-analysis of the deposited data

How the results depend on the processing

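Members lower and higher numbered 22 to 43 and 6 to 11 with 1 array left out, other genes lower and higher 623 to 1502 and 414 to 991, and the median difference of members -0.151 to -0.094. That median was -0.086 after quantile normalization, -0.089 at a mean of 6 or more and -0.077 with no level filter. In these 3 settings and at a mean of 8 or more, median centring, averaging rows, array weights, the trended robust fit and fitting only genes of mean 7 or more, members lower stayed within 1.5 times of 42 (31 to 58) and members higher of 10 (8 to 14). The level filters recount the same fit over sets of other sizes. Of 113 Zfp genes at a mean of 8 or more 27.4% were lower, of 273 at 6 or more 19%, and of all 340 17.1%. The shares of other genes were 14.4%, 9.09% and 7.05%. Quantile normalization made 70.8% of members' calls lower, against 80.8%.

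With the replicate number as a block, 44 members were lower and 11 higher. Deviations of same-numbered arrays correlated at 0.228, -0.17 and 0.555 over all genes, so the numbers were not taken as pairs. Not every array correlated best with its own number.

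Of 322 differences of named members under settings other than leaving out an array, 7 lost a call (Zfp445, Zfp638 and Zfp523) and 5 gained one. Zfp148 passed with the block, with only genes of mean 7 or more fitted and with array weights (limma adjusted p = 0.0426, 0.0411 and 0.0229), and Zfp746 in the last 2 of these (0.0416 and 0.0447).

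Differences near 0 changed sign. After quantile normalization Zfp622, Zfp687 and Zfp110 stood at 0.005, 0.011 and 0.029, and with array weights Zfp622, Zfp110 and Zfp366 at 0.008, 0.012 and 0.073. With 1 array left out, the lowest and highest values were -0.022 and 0.19 for Zfp57, -0.019 and 0.125 for Zfp568, -0.082 and 0.055 for Zfp622, -0.322 and 0.244 for Zfp366, -0.096 and 0.04 for Zfp687, -0.074 and 0.032 for Zfp110, and -0.053 and 0.082 for Zfp703. None of these genes passed the test in any setting. The causes were not tested.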
